A study of Mus musculus with 9 samples.

Results

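The acrosome genes of round spermatids (RS) were examined in cultured mouse cells treated with oxamate, alone or with octyl-L-2HG. The set comprised 10 genes selected by symbol (Acr, Acrbp, Acrv1, Spaca1, Spaca3, Spaca7, Zpbp, Zpbp2, Spam1 and Dpy19l2) out of 55414 genes listed, and all 10 were among the 25128 genes tested. Oxamate inhibits lactate dehydrogenase, and octyl-L-2HG is a form of L-2-hydroxyglutarate (L-2HG) that enters cells. RNA-seq was done on 3 libraries of each of 3 groups after a culture of 24 h, in vehicle (DMSO at 0.15%), in oxamate (24 mM) or in both compounds (oxamate at 24 mM and octyl-L-2HG at 0.3 mM). Vehicle libraries carry the numbers 1 to 3, oxamate libraries 4 to 6, and libraries with both compounds 7 to 9. The labels call the genotype WT and the tissue testis. The methods describe Stra8-iCre males with a Cre-activated tdTomato reporter on a C57Bl/6 background, in which Cre marks germ cells and RS were sorted by red fluorescence and forward scatter, so every group shared the reporter and the sort. The incubations were done in triplicate, and whether the replicates came from separate mice was not stated, so p-values measure the spread between these libraries, which may be technical.

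The acrosome is a secretory vesicle that grows from Golgi-derived vesicles in the round spermatid and flattens over the front of the nucleus. It holds proteases, hyaluronidase and zona-binding proteins, and its release near the egg allows sperm to reach and fuse with it. A plate of cytoskeletal proteins, the acroplaxome and perinuclear theca, and proteins of the nuclear envelope hold it in place. Genes for its contents are strongly transcribed in RS, before the nucleus condenses and transcription stops.

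In short, none of the 10 genes passed the test between oxamate and vehicle, where 5.19% of all genes tested did. With both compounds, Zpbp2, Acrbp, Spaca7, Acrv1 and Acr were higher than with vehicle, by 15.4% to 29.2%, and Spaca3 was lower by 20.1%, where 7.48% of all genes tested were called higher and 10.6% lower. Of these calls, those of Zpbp2 and Acrbp held with any library left out, those of Acr, Acrv1, Spaca7 and Spaca3 did not, that of Spaca3 was also lost with a correction for transcript length, and those of Acr and Acrv1 with total counts as the scaling. Spaca1, Zpbp, Spam1 and Dpy19l2 did not pass the test in any comparison. The upstream sequences of 5 of the 6 genes that passed are printed because these genes moved in the same libraries, Spaca3 in the opposite direction. The window is the 250 bases before the RefSeq transcript start on GRCm38.p6, read 5′ to 3′ on the gene's own strand: Zpbp2 (chr11:98550847-98551096, plus strand), Acrbp (chr6:125049677-125049926, plus strand), Acrv1 (chr9:36692970-36693219, plus strand), Spaca7 (chr8:12572786-12573035, plus strand) and Spaca3 (chr11:80858113-80858362, plus strand). RefSeq lists 2 starts for Spaca3, and the window of 1 of them is shown. Its first transcribed bases were not found in a transcript of the other annotation used for lengths, whereas those of the other 4 were. The window of Acr is not shown. Capitals mark matches to TGACG on either strand (printed as CGTCA where it lies on the other strand) and, in Spaca7, to TATAAA on the other strand.
Zpbp2: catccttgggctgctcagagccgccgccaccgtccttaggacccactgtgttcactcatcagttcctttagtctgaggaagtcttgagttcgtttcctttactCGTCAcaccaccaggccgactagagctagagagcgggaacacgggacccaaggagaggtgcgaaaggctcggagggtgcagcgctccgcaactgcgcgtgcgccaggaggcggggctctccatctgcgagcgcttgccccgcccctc
Acrbp: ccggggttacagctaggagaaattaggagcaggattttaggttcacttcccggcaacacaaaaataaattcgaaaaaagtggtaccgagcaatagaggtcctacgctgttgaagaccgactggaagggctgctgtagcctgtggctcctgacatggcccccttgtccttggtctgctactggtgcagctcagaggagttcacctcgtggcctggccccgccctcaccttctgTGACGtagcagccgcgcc
Acrv1: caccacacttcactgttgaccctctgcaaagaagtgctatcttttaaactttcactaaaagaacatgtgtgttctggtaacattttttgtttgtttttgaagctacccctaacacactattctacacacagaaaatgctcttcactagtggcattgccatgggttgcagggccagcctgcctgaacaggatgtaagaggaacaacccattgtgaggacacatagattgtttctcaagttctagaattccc
Spaca7: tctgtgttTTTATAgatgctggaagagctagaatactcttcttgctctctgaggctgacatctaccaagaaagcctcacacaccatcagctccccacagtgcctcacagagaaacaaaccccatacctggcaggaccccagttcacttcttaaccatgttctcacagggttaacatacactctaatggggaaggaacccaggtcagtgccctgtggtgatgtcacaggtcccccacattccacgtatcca
Spaca3: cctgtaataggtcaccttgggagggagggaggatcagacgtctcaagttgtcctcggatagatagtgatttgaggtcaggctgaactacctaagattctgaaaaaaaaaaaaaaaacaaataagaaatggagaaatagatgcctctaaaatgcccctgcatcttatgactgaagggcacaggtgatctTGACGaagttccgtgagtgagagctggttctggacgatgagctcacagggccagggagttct

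TGACG is the core of the cAMP response element, which CREM, a regulator of spermatid genes, can bind. It was present in the windows of 4 of the 9 genes with one (Zpbp2, Acrbp, Spaca3 and Spaca1), compared with 17.8% of all 32851 promoter windows of the same length. The match lay 14 to 18 bases before the start in Acrbp, 58 to 62 bases before it in Spaca3 and 143 to 147 bases before it in Zpbp2. Spaca1 held 2 matches. It occurred therefore in genes that rose, in Spaca3, which fell, and in Spaca1, which did not pass the test. The full palindrome TGACGTCA was in none of the 9 windows (1.55% of all), and nor was GTTGCCA, a part of the X-box (3.66% of all). TATAAA was in 1 window (12.4% of all) and CCAAT in 1, that of Zpbp (33.8% of all). The search covered both strands, and each motif was counted on its own whether or not it shared bases with another, as TGACG does with the palindrome that contains it. The windows ranged from 39.6% to 62.4% GC, against a median of 52.4% over all windows. Zpbp2 held 19 CpG dinucleotides, while Acrv1 and Spam1 held 0, against a median of 6.

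The libraries held 32339533 to 39888396 counted reads, of which the 10 genes together took 0.296% to 0.308% with vehicle, 0.291% to 0.313% with oxamate and 0.321% to 0.334% with both compounds. Mitochondrial genes took 0.0786% to 0.0962%. Oxamate library 4 stood apart from libraries 5 and 6 (chi-square per degree of freedom of counts 18.7 and 23.3, compared with 2.1 between 5 and 6). The value was 11.9 and 11.3 between vehicle library 1 and vehicle libraries 2 and 3, 6.48 between 2 and 3, and 2.43 to 7.1 among the libraries with both compounds. As CPM (a gene's reads scaled to a common library total), the summed level of 10 spermatid markers was 1930 to 2000 with vehicle, 1700 to 1790 with oxamate and 1350 to 1390 with both, and 10 spermatocyte markers summed to 477 to 553 CPM. The summed CPM of the other marker lists was 7.02 to 8.25 for spermatogonia (8 genes), 0.0618 to 0.212 for Sertoli cells (7 genes, Fshr at 0), 0.647 to 1.12 for Leydig cells (6 genes), 2.23 to 3.18 for peritubular myoid cells (5 genes), 3.13 to 4.54 for macrophages (6 genes, Lyz2 at 0) and 11.6 to 16.0 for endothelium (4 genes). The sorted cells thus carried spermatid transcripts and, at a lower summed level, spermatocyte transcripts, with the Sertoli and Leydig lists near 0. Of the endothelial list, Vwf (413, 353 and 292 normalized counts in the vehicle, oxamate and combined groups) was lower with both compounds than with vehicle by edgeR (log2 fold change -0.52, adjusted p = 0.000447) and Kdr (93.6, 129 and 129) was higher (0.44, adjusted p = 0.0232), while Pecam1 and Cdh5 had means of 27.8 and 20.2. The part of these genes in the results was not tested.

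All 10 genes were strongly expressed. Scaled by exon length, their vehicle levels lay between the 95.6th and the 99.2nd percentile of genes tested. Zpbp2 was the highest, with 9144 normalized counts per kb of exon, followed by Acr with 7416, Spaca3 with 6526, Spaca1 with 6162 and Dpy19l2 with 5433. Spaca7 (4344), Acrbp (3853), Zpbp (3073), Spam1 (2659) and Acrv1 (2472) followed. Of the 3277 exon bases of Acrbp, 975 are shared with Gm44597, a gene on the same strand with under 10 counts, and reads there could have been dropped as ambiguous, so the level of Acrbp and its place in this order are uncertain. The vehicle libraries of neighbours in this order overlapped for Acr and Spaca3, Spaca3 and Spaca1, Spaca7 and Acrbp, and Spam1 and Acrv1, so the vehicle levels of these pairs were not separated beyond the spread between libraries. Within a library, Acr was nevertheless above Spaca3 in 9 of the 9 libraries, Spaca7 above Acrbp in 7, Spam1 above Acrv1 in 5 and Spaca3 above Spaca1 in 2. Differences between genes ran over a range of levels far wider than any difference between treatments, as the plot of length-scaled levels shows.

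**Figure D1:**
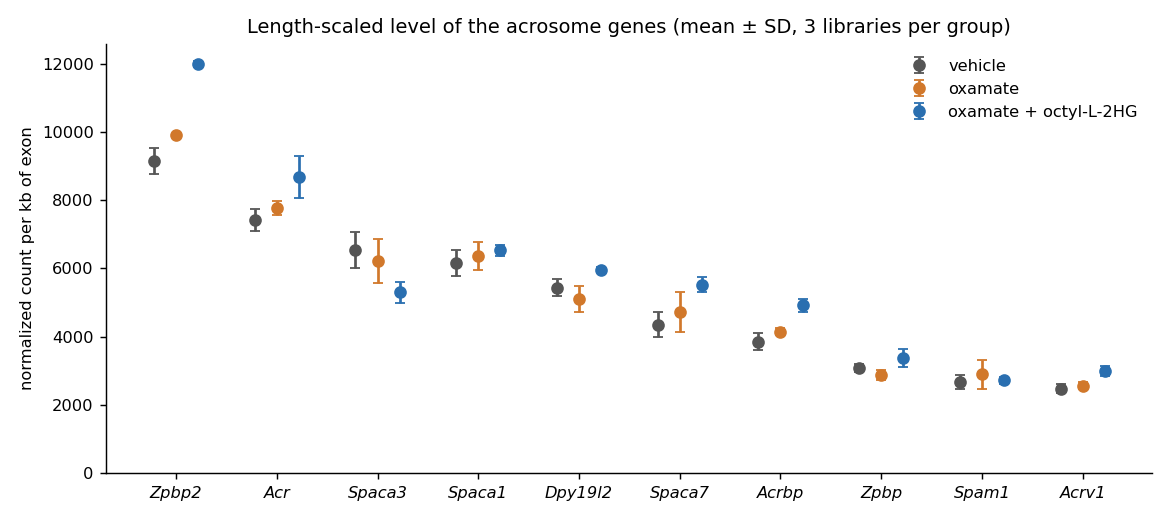
Mean normalized count per kb of exon of each gene (vertical axis, from 0), in order of the vehicle level, for vehicle (grey), oxamate (orange) and oxamate with octyl-L-2HG (blue), with SD bars over 3 libraries. Zpbp2 led in every group and Acrv1 was lowest with vehicle, at 2472.

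The test was the quasi-likelihood F-test of edgeR, p-values were adjusted over all genes tested (Benjamini-Hochberg), and a gene was called at an adjusted p under 0.05. Levels below are normalized counts, that is, read counts divided by a size factor per library, and a fold change is on the log2 scale with its standard error (SE). The group means are given with the SD over 3 libraries. The comparisons share libraries: both compounds against oxamate and oxamate against vehicle use the same oxamate libraries, and both comparisons with vehicle use the same vehicle libraries. Bulk RNA does not tell fewer cells of a stage from less RNA per cell.

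The proacrosin pair was described first. Acr (ENSMUSG00000022622) encodes the precursor of acrosin, the serine protease of the acrosomal matrix. Its level was 12010, 11031 and 11822 with vehicle, 12487, 11841 and 12150 with oxamate, and 14602, 13576 and 12672 with both compounds. The libraries with both compounds were all above the others, though library 9 only slightly. Acr was 15.4% higher with both compounds than with vehicle (log2 fold change 0.21, SE 0.064, adjusted p = 0.0284), while the change from oxamate was 0.14 (adjusted p = 0.200). The call against vehicle was lost without vehicle library 2 (adjusted p = 0.122), vehicle library 3 (0.073), library 7 (0.171) or library 8 (0.0903), and with total counts as the scaling (0.111).

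Acrbp (ENSMUSG00000072770) encodes the proacrosin-binding protein, which packs proacrosin into the forming granule and delays its activation. Its level was 12925, 11726 and 13224 with vehicle, 13929, 13365 and 13469 with oxamate, and 16687, 16151 and 15485 with both. The 3 groups did not overlap. It was 25.7% higher with both compounds than with vehicle (log2 fold change 0.33, SE 0.063, adjusted p = 0.000656), a call that held with any library left out. It was 16.4% higher than with oxamate alone (0.22, SE 0.062, adjusted p = 0.0257), a call lost without library 5 (adjusted p = 0.114), 6 (0.077), 7 (0.118), 8 (0.102) or 9 (0.0512) and with total counts as the scaling (0.0581). Against vehicle, oxamate alone gave 0.11 (adjusted p = 0.388). Within each library, and so regardless of the scaling between libraries, the ratio of Acrbp to Acr per kb was 0.508 to 0.535 with vehicle, 0.530 to 0.540 with oxamate and 0.546 to 0.584 with both compounds. The libraries with both compounds lay above all others in this ratio. Its two-sided exact permutation p for both compounds against vehicle was 0.1, the smallest that 3 libraries against 3 allow. The ratio does not remove an effect of transcript length, and Acrbp has 3277 exon bases and Acr 1567. With a correction for transcript length, the log2 changes against vehicle were close, 0.295 for Acrbp and 0.279 for Acr. The part of length in the ratio was not tested.

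Zpbp2 (ENSMUSG00000017195) and Zpbp (ENSMUSG00000020193) encode related proteins of the acrosomal matrix that bind the zona pellucida, the coat of the egg, and are needed for a normal acrosome. Zpbp2 was 15864, 15624 and 14679 with vehicle, 16666, 16722 and 16612 with oxamate, and 20191, 20005 and 20344 with both. The groups did not overlap, and the spread with both compounds (SD 170) and with oxamate (SD 55.1) was small beside the step between them. Zpbp2 was the member with the smallest p for any difference among the 3 groups (adjusted p = 0.000317). It was 29.2% higher with both compounds than with vehicle (log2 fold change 0.37, SE 0.060, adjusted p = 0.00013) and 18.9% higher than with oxamate (0.25, SE 0.059, adjusted p = 0.00833). Both calls held with each of the 9 libraries left out. The oxamate change from vehicle, 0.12 (SE 0.059), did not pass the test (adjusted p = 0.311).

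Zpbp was 12516, 13465 and 13183 with vehicle, 11493, 12759 and 12280 with oxamate, and 13191, 14185 and 15449 with both. The vehicle libraries overlapped both other groups, whereas those with both compounds were all above oxamate. The difference from oxamate was 0.20 (SE 0.069, adjusted p = 0.0599) and that from vehicle 0.11 (adjusted p = 0.319), neither past the threshold. DESeq2 called the former (adjusted p = 0.0162), as did the fit without library 7 (0.046). Spata48, on the opposite strand, shares 223 exon bases with Zpbp and had a mean of 3065 normalized counts, 23.3% of that of Zpbp, and the strand setting of the counting was not given in the sources used here. The ratio of Zpbp2 to Zpbp per kb was 2.81 to 3.20 with vehicle, 3.31 to 3.66 with oxamate and 3.32 to 3.86 with both. All 6 libraries with oxamate were thus above the vehicle libraries in this ratio. The mean difference of the log2 ratio was 0.22 between oxamate and vehicle and 0.048 between both compounds and oxamate, with two-sided exact permutation p-values of 0.1 and 0.6. With 3 libraries against 3, 0.1 is the smallest p such a test allows.

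**Figure D2:**
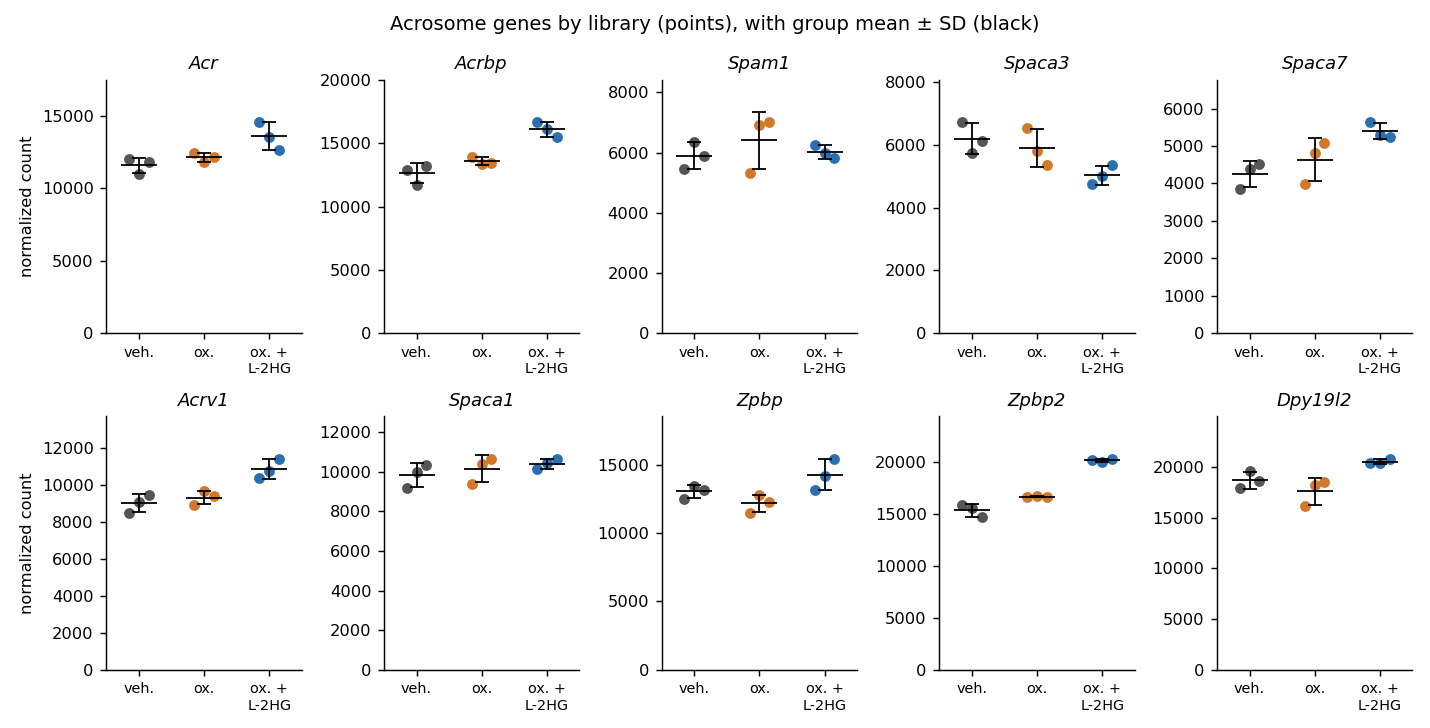
Normalized count (vertical axes, from 0) of each acrosome gene in each library (points) with the group mean and SD in black, for vehicle (veh., grey), oxamate (ox., orange) and oxamate with octyl-L-2HG (blue). Zpbp2 rose to 20005 to 20344 with both compounds with little spread, and Spaca3 fell to 4744 to 5353.

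Spam1 (ENSMUSG00000029682) encodes the hyaluronidase PH-20, which sits in the sperm plasma and inner acrosomal membranes and opens the cumulus matrix. It was 5459, 6348 and 5875 with vehicle, 5305, 6902 and 7019 with oxamate, and 6261, 5971 and 5822 with both. Oxamate library 4 was the lowest of the 9 and the other oxamate libraries the highest. No comparison passed the test (adjusted p = 0.505, 0.463 and 0.962). Without library 4, Spam1 was called in both comparisons with oxamate, at 0.24 above vehicle (adjusted p = 0.00895) and at -0.23 for both compounds against oxamate (adjusted p = 0.00649). Its neighbours in the hyaluronidase family, Hyal5 (7076, 7066 and 6776 in the 3 groups) and Hyal6 (7239, 7341 and 8294), did not pass the test either. Hyal1, of the same family but at a low level (means of 36.4, 66.6 and 60.4, named after its values were seen), was called higher than with vehicle in oxamate (0.88, edgeR adjusted p = 0.00571) and in both compounds (0.71, adjusted p = 0.0123). The ratio of Hyal5 to Spam1 per kb was 1.21 to 1.24 with vehicle, 1.11 to 1.14 with oxamate and 1.09 to 1.22 with both compounds. Oxamate, library 4 included, and vehicle did not overlap in this ratio (two-sided exact permutation p = 0.1, the smallest possible). Reads shared by these related genes could have been dropped or split.

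Spaca3 (ENSMUSG00000053184) encodes a lysozyme-like protein of the acrosomal matrix without lytic activity. It was 6736, 5742 and 6140 with vehicle, 6556, 5817 and 5361 with oxamate, and 4744, 4999 and 5353 with both compounds. The libraries with both compounds were below all others, the highest of them just under oxamate library 6. Spaca3 was 20.1% lower with both compounds than with vehicle (log2 fold change -0.32, SE 0.080, adjusted p = 0.00662) and 16.4% lower than with oxamate (-0.26, SE 0.080, adjusted p = 0.0404). The former call was lost without library 7 (adjusted p = 0.0598). The latter held in 3 of the 9 fits with a library left out and was lost without vehicle library 3 (0.0715), 4 (0.0661), 5 (0.0933), 7 (0.203), 8 (0.144) or 9 (0.0503). Spaca3 has the shortest exon sequence of the 10 genes, 951 bases, and with a correction for transcript length both calls were lost, at -0.18 against vehicle (adjusted p = 0.111) and -0.19 against oxamate (adjusted p = 0.126). The call against oxamate was also lost with DESeq2's size factors (0.0605), with filterByExpr (0.0544) and when only these groups were fitted (0.054). Of other lysozyme-like genes, Lyzl1 (4454, 4773 and 4388) and Lyzl6 (6605, 6914 and 6653) passed the test in no comparison, and Lyzl4 (3349, 3618 and 2996) was lower with both compounds than with oxamate (-0.30, edgeR adjusted p = 0.0122) but not called against vehicle (adjusted p = 0.102). Spaca5, also lysozyme-like, was higher with both compounds than with oxamate (0.34, adjusted p = 0.0114) and than with vehicle (0.36, adjusted p = 0.00492). Lyzl4 and Lyzl6 were named after their values were seen.

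Spaca7 (ENSMUSG00000010435) encodes a secreted protein of the acrosomal matrix and has an exon length close to that of Spaca3, 979 bases. It was 3848, 4397 and 4514 with vehicle, 3982, 4812 and 5092 with oxamate, and 5644, 5303 and 5245 with both. The libraries with both compounds lay above the rest, and oxamate libraries 5 and 6 were also above vehicle. It was 1.25-fold higher with both compounds than with vehicle (log2 fold change 0.32, SE 0.081, adjusted p = 0.00722), a call lost without library 7 (0.0525), and 0.20 above oxamate (adjusted p = 0.131). Without oxamate library 4, Spaca7 was also called higher with oxamate than with vehicle (0.22, adjusted p = 0.0222). Spaca3 and Spaca7, similar in length, moved in opposite directions, and their ratio per kb within each library was 1.34 to 1.80 with vehicle, 1.08 to 1.69 with oxamate and 0.865 to 1.05 with both compounds. This pair was chosen after its values were seen.

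Acrv1 (ENSMUSG00000032110) encodes SP-10, a matrix protein that is first made in RS. It was 8497, 9108 and 9442 with vehicle, 8929, 9660 and 9387 with oxamate, and 10355, 10778 and 11429 with both. Vehicle and oxamate overlapped, and every library with both compounds was above them. It was 18.6% higher with both compounds than with vehicle (0.25, SE 0.065, adjusted p = 0.0103), a call lost without vehicle library 1 (0.0554) or library 9 (0.077) or with total counts as the scaling (0.0588), and 0.19 above oxamate (adjusted p = 0.0598). The latter was called by DESeq2 (adjusted p = 0.0133) and without oxamate library 4 (0.0475).

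Of the membrane proteins that tie the acrosome to the nucleus, Spaca1 (ENSMUSG00000028264) lies in the acrosomal membrane and is needed for the head to take shape. It was 9166, 10001 and 10335 with vehicle, 9385, 10414 and 10662 with oxamate, and 10152, 10430 and 10653 with both. All 3 groups overlapped. The difference between both compounds and vehicle was 0.061, with a 95% interval of -0.077 to 0.199, and that from oxamate 0.011, with an interval of -0.127 to 0.149.

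Dpy19l2 (ENSMUSG00000085576) encodes a protein of the inner nuclear membrane that faces the acrosome, and its loss gives round-headed sperm without one. It was 17927, 19600 and 18573 with vehicle, 16096, 18221 and 18487 with oxamate, and 20385, 20366 and 20812 with both. The libraries with both compounds were above the others, yet neither the difference from oxamate (0.20, SE 0.065, adjusted p = 0.054) nor that from vehicle (0.11, adjusted p = 0.260) passed the test. DESeq2 called the former (adjusted p = 0.0136), as did the fit without vehicle library 1 (0.049). Cypt4, on the opposite strand within the same locus with 0 shared exon bases, had a mean of 7175. The paralog Dpy19l1, of the same membrane protein family, took a different course. It was 2332 ± 164 with vehicle, 4474 ± 123 with oxamate and 4793 ± 17.7 with both (SD, n = 3), so its rise was between vehicle and oxamate (log2 fold change 0.94, SE 0.066, edgeR adjusted p = 1.87e-08), with 0.074 more when octyl-L-2HG was added (adjusted p = 0.56). Dpy19l3, at a low level, had means of 131, 231 and 129 in the vehicle, oxamate and combined groups and was called up with oxamate (0.82, adjusted p = 0.000238) and down again with octyl-L-2HG (-0.86, adjusted p = 0.000108). The ratio of Dpy19l1 to Dpy19l2 per kb was 0.0602 to 0.0731 with vehicle, 0.132 to 0.146 with oxamate and 0.125 to 0.128 with both compounds.

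**Figure D3:**
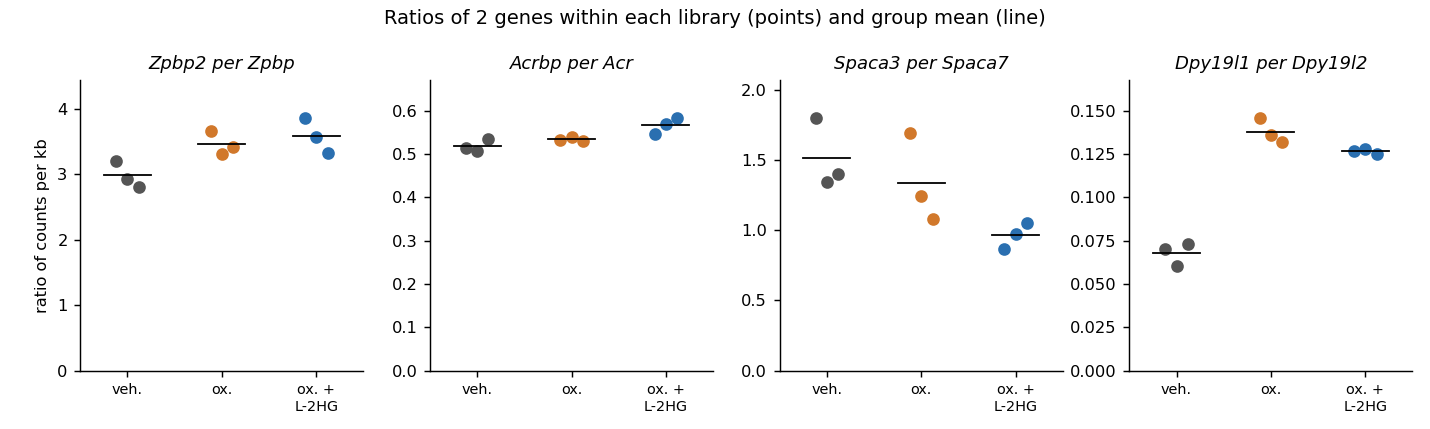
Ratio of counts per kb of exon between a pair of genes in each library (points; vertical axes from 0) with the group mean (line), for vehicle (veh.), oxamate (ox.) and oxamate with octyl-L-2HG. Spaca3 per Spaca7 was 0.865 to 1.05 with both compounds, and Dpy19l1 per Dpy19l2 was above 0.12 in all 6 libraries with oxamate and below 0.08 with vehicle.

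Counted together, 0 of the 10 genes passed the test between oxamate and vehicle by edgeR, where 5.19% of all genes tested did (9.40% of the 4966 genes averaging 1000 normalized counts or more, as all members do). The count was also 0 by DESeq2, and 0 at an unadjusted p under 0.05, where 17.3% of all genes tested and 24.2% of those averaging 1000 or more passed. The libraries of the 2 groups did not overlap for Acrbp and Zpbp2, that is, for 2 of the 10 genes, compared with 21.3% of all genes tested and 26.5% of those averaging 1000 or more. The log2 fold changes ran from -0.096 to 0.125, and their 95% intervals from -0.240 to 0.301, or 0.847-fold to 1.23-fold. Oxamate library 4 was the lowest of its group for 6 members (Acrv1, Spaca1, Spaca7, Zpbp, Spam1 and Dpy19l2), and vehicle library 1 was the lowest of its group for the same 6. Without library 4, 2 genes passed, Spaca7 and Spam1.

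Between both compounds and oxamate, 2 genes were called higher (Zpbp2 and Acrbp) and 1 lower (Spaca3), or 1 higher and 1 lower with total counts and 5 higher and 0 lower with DESeq2's size factors as the scaling, where 3.18% of all genes tested were called higher and 8.06% lower (10.6% and 10.2% of those with a mean of at least 1000). At an unadjusted p under 0.05 the count was 8, where 23.6% of all genes tested and 39.2% of those with a mean of at least 1000 passed. The libraries did not overlap for 8 genes, all but Spaca1 and Spam1, compared with 28.8% of all genes tested and 47.4% of those with a mean of at least 1000. With DESeq2's size factors, filterByExpr or no filter on low counts, Acrv1, Zpbp and Dpy19l2 were also called higher. Spaca7 was called higher without a filter (adjusted p = 0.0171) or with the length correction (adjusted p = 0.0429). The median log2 fold change was 0.195, beside 0.039 over genes with a mean of at least 1000 and -0.038 over all genes.

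Between both compounds and vehicle, 5 genes were called higher and 1 lower, where 7.48% of all genes tested were called higher and 10.6% lower (20.3% higher and 9.38% lower at a mean of at least 1000). The libraries did not overlap for 7 genes, the 6 called and Dpy19l2, against 36.5% of all genes and 57.3% at a mean of at least 1000. The median was 0.159, beside 0.064 at a mean of at least 1000 and -0.045 over all genes. In the test for any difference among the groups, 5 genes passed (Acrbp, Acrv1, Spaca3, Spaca7 and Zpbp2), where 19.8% of all genes tested did (34.0% at a mean of at least 1000). In the same libraries the 10 spermatid markers all fell with both compounds relative to vehicle (median -0.55), among them Prm1, a protamine that packs sperm DNA (4915, 3591 and 2919 in the 3 groups), and Tnp2, a transition protein (8154, 6511 and 4919). Relative to oxamate, 9 of them were called lower (median -0.313, with 0 of the 10 above 0), where 8.06% of all genes tested were called lower. With oxamate alone 4 of them were called lower than with vehicle, Tnp1, Tnp2, Prm1 and Prm2, where 306 of the 25128 genes tested were called lower. The median of the 10 markers was -0.174 in this comparison, with 2 of them above 0. The part of this shift in the differences of the acrosome genes was not tested.

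**Figure D4:**
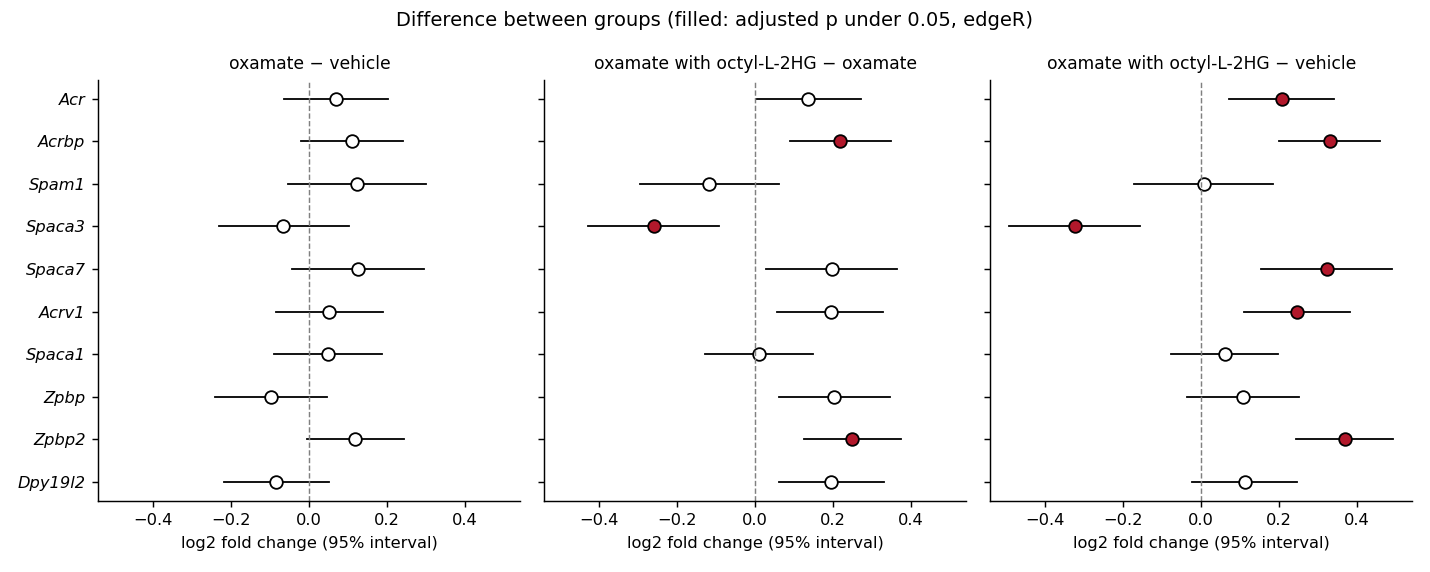
Log2 fold change of each acrosome gene (point) with its 95% interval (line) for oxamate minus vehicle (left), both compounds minus oxamate (middle) and both compounds minus vehicle (right), filled where the edgeR adjusted p was under 0.05. No point is filled on the left, 3 are in the middle and 6 on the right, with Spaca3 alone among the filled points below 0.

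Other genes of the acrosome, from 4 lists of 75 genes of which 70 were tested, were called in both directions. Between oxamate and vehicle 3 were higher and 1 lower, between both compounds and oxamate 7 higher and 16 lower, and between both compounds and vehicle 12 higher and 13 lower, with a median log2 fold change of 0.001 in the last. The split depended on the scaling: with total counts it was 2 higher and 2 lower, 3 higher and 20 lower, and 7 higher and 16 lower in the 3 comparisons. Without library 7 it was 2 higher and 11 lower between both compounds and oxamate, and without library 8 it was 2 higher and 10 lower. Between oxamate and vehicle the split was 6 higher and 4 lower without oxamate library 4, and 1 higher and 0 lower without vehicle library 1 or 2. Of all genes tested, 5.19% were called between oxamate and vehicle. Between both compounds and oxamate 3.18% were called higher and 8.06% lower, and between both compounds and vehicle 7.48% higher and 10.6% lower. Of the 10715 genes averaging 100 or more, as 65 of the 70 do, 866 were called higher and 170 lower in the first comparison. In the next 756 were higher and 1361 lower, and in the last 1712 higher and 1454 lower. Of 23 other proteins of the matrix and acrosomal membranes, 4 were higher and 5 lower with both compounds than with vehicle. Sppl2c, an intramembrane protease, fell from 3739 ± 217 to 2265 ± 18.2 (-0.74, adjusted p = 1.83e-07). The acrosomal protein Iqcf1 (-0.59), Cd46 of the inner acrosomal membrane (-0.60) and Spaca4 (-0.45) were also lower with both compounds. Zan, the zona-binding zonadhesin, was the gene of this list called with oxamate against vehicle (4875 ± 745 to 6615 ± 15.0, 0.44, adjusted p = 0.00123).

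The 16 genes of the next list were, apart from Spem1, of the theca, the acroplaxome and the nuclear envelope. Of the 16, 0 were higher and 8 lower with both compounds than with vehicle (median -0.185), and 10 were lower than with oxamate (median -0.252). The shares of all genes tested called lower in these comparisons were 10.6% and 8.06%, with medians of -0.045 and -0.038. Of the 10715 genes averaging 100 or more, as all 16 do, 1454 and 1361 were called lower. Spem1, needed to shed the sperm cytoplasm, fell from 2305 ± 139 with vehicle to 1871 ± 75.0 with oxamate and 1322 ± 58.2 with both (-0.82 against vehicle, adjusted p = 1.26e-07), and was also called lower with oxamate alone (-0.30, adjusted p = 0.0143). The call with oxamate alone was lost without vehicle library 1 or 2 and when only vehicle and oxamate were fitted. Ccin, or calicin, a basic protein of the theca, was 0.72 lower on the log2 scale (-0.72, adjusted p = 1.3e-07). The actin-related proteins Actrt2 (-0.58, adjusted p = 6.56e-06) and Actl9 (-0.52, adjusted p = 5.44e-05) were lower too. The lamin Lmnb2 was called higher with oxamate than with vehicle (0.24, adjusted p = 0.0394). It was called lower with both compounds than with oxamate (-0.21, edgeR adjusted p = 0.0442) and was not called against vehicle (0.028, adjusted p = 0.836).

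Of 16 genes for the Golgi traffic that builds the vesicle, 7 were higher and 0 lower with both compounds than with vehicle (median 0.157), and 3 higher than with oxamate, whereas 0 were called with oxamate against vehicle. Of all genes tested, 7.48% were called higher with both compounds than with vehicle, 3.18% higher than with oxamate, and 5.19% either way between oxamate and vehicle. Of the 10715 genes averaging 100 or more, as all 16 do, 1712 were called higher with both compounds than with vehicle and 756 higher than with oxamate. Tmf1, a Golgi coiled-coil protein, was 13066 ± 1307 with vehicle, 13157 ± 1452 with oxamate and 17020 ± 316 with both (0.36 against vehicle, adjusted p = 0.00232). The chaperone Hsp90b1 (0.31), the Golgi protein Gopc (0.39 at a mean of 311) and Vps13b (0.28) were also higher than with vehicle, and Golga3 was 0.22 above oxamate. Of 15 genes of the exocytotic machinery that were tested, Stx2, a membrane-fusion SNARE, was called higher with oxamate (0.23, adjusted p = 0.0407) and with both compounds (0.28, adjusted p = 0.00441) than with vehicle, and Nsf, the ATPase that recycles SNAREs, was lower with both than with oxamate (-0.41, adjusted p = 0.0245). Of Zan, Lmnb2 and Stx2, the 3 genes of the 4 lists called higher with oxamate, at most 1 stayed called when any 1 vehicle library was left out.

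**Figure D5:**
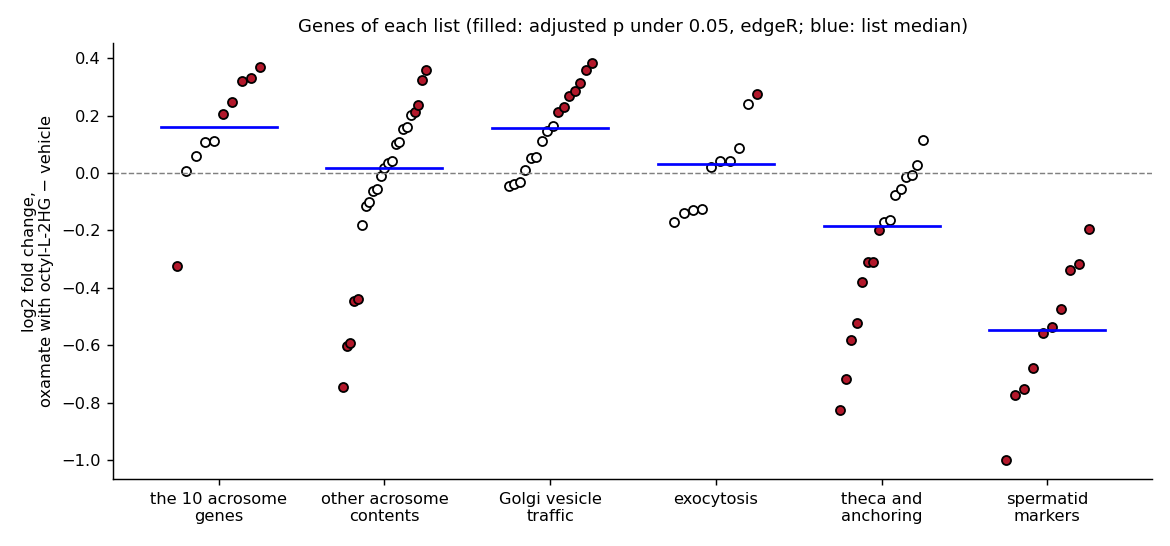
Log2 fold change between both compounds and vehicle (vertical axis) for each gene averaging 100 normalized counts or more, by list, filled where the edgeR adjusted p was under 0.05, with the list median in blue. The medians were 0.159 for the 10 acrosome genes, 0.157 for Golgi traffic, -0.185 for theca and anchoring and -0.547 for the spermatid markers.

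Of 19 paralogs of the members that were tested, 4 were called higher and 0 lower with oxamate than with vehicle, and 3 higher and 1 lower with both compounds than with vehicle. The shares of all genes tested were 5.19% called between oxamate and vehicle, and 7.48% higher and 10.6% lower between both compounds and vehicle. Of the 10715 genes averaging 100 or more, as 14 of the 19 do, 866 were called higher and 170 lower between oxamate and vehicle. Between both compounds and vehicle 1712 of them were higher and 1454 lower. Among the testis serine proteases related to Acr, Prss55 was lower with both compounds (1498 ± 61.8 with vehicle, 1283 ± 86.6 with oxamate and 979 ± 13.1 with both, -0.64 against vehicle, adjusted p = 3.99e-06), opposite in sign to Acr. Prss42 was higher with both compounds than with oxamate (0.29, adjusted p = 0.012) or vehicle (0.22, adjusted p = 0.0375), and Prss43 was higher than with oxamate (0.28, adjusted p = 0.0346). Prss46 was called only with oxamate against vehicle (0.25, adjusted p = 0.0319). Prss38, Prss39, Prss41, Prss44 and Prss45 passed the test in no comparison.

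The genes whose levels over the 9 libraries were most like those of Zpbp2 were Fnta, Wdr11, Emc7, Eif2ak1 and Senp2, by the root mean square difference of log2 deviations from each gene's own mean, among 10715 genes with a mean of at least 100. The differences were 0.0412, 0.0418, 0.0440, 0.0441 and 0.0450. Fnta, the closest, had means of 3792, 4007 and 4911 in the vehicle, oxamate and combined groups. Among the members, Acrbp was the nearest to Zpbp2 (0.0723, rank 116), followed by Acrv1 (0.0900, rank 360) and Acr (0.0986, rank 567), and Spaca3 was the farthest (0.3076, rank 9208). All of these values share the same 9 libraries and are a description.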

How the data were processed

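RS libraries were made with a stranded mRNA kit after FACS. The authors trimmed reads with cutadapt 2.10, aligned them with TopHat2 2.1.1, counted reads per gene with HTSeq 2.01 and deposited the raw counts of 9 libraries. A second deposited value, a normalized signal, is each count divided by the DESeq2 1.36.0 size factor of its library. Tool versions are from the submitters' processing notes. The labels and the methods name different sequencers, and the strand setting of counting is not given in the sources used here. No column of values went unused. The 6250 genes listed without values were left out.

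Genes with fewer than 10 counts in sum were dropped, and the counts of the other 25128 entered edgeR 4.0.16 under R 4.3.3 (TMM, all 9 libraries in one robust quasi-likelihood fit with group as the only term), checked on simulated data. Adjusted p-values are Benjamini-Hochberg over all genes tested. Exon lengths and overlapping genes came from another mouse annotation, matched by gene identifier for 99.6% of genes tested, and promoter windows from RefSeq on GRCm38.p6, for 9 of the 10 genes. The deposited table uses another build, and no coordinates were mixed. Depth was 32339533 to 39888396 counts per library, and intervals are at 95%.

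The 10 genes, the other lists and the tests were chosen with earlier results of these data known. All members are named, with up to 4 called genes per other acrosome list and comparison that had the largest absolute fold change and a mean normalized count of at least 100, all paralogs at or above that mean, and the 5 genes most like the member with the smallest p for any difference. The rule does not cover Lyzl4, Lyzl6, Hyal1 and the single marker genes, which were chosen once values were known. A Spaca7 paralog was not analysed here. Alternatives were DESeq2 1.42.0 as the test, scaling by its size factors or by total counts, no filter or filterByExpr, other thresholds, fits of only the groups compared, a correction for transcript length, and each library left out.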

Additional observations from a re-analysis of the deposited data

How the results depend on the processing

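For both compounds against vehicle, 6 members were called, 4 to 6 under the other settings and 3 to 6 when a library was left out (3 without library 7). Between oxamate and vehicle the count was 0 under the other settings and 0 to 2 with a library left out (2 without oxamate library 4). Between both compounds and oxamate the count of 3 became 1 at an adjusted p under 0.01, 8 at an unadjusted p under 0.05, 5 with DESeq2's size factors, 6 with DESeq2, 7 without a filter on low counts and 5 with filterByExpr, and 1 to 4 with a library left out (1 without library 5, 8 or 9). For any difference among the groups the count of 5 became 2 at 0.01, 8 unadjusted, 3 with total counts, 8 with DESeq2 and 8 without a filter, and 2 to 7 with a library left out (2 without library 8, 3 without library 7 or 9).

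Of the other acrosome genes, the 4 called between oxamate and vehicle became 1 at 0.01, 17 unadjusted, 1 when only these groups were fitted and 2 with the length correction, and 1 to 10 with a library left out (10 without oxamate library 4, 1 without vehicle library 1 or 2, and 2 without vehicle library 3 or library 5, 6, 8 or 9). The 23 called between both compounds and oxamate became 11 at 0.01 and 35 unadjusted, and 12 to 26 with a library left out (13, 12 and 15 without library 7, 8 and 9). The 25 called against vehicle stayed between 18 and 33 with a library left out.

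Signs turned only for differences near 0. With total counts as the scaling, Spaca1 was -0.034 for both compounds against oxamate and -0.002 against vehicle, and Spam1 -0.056 against vehicle. With the length correction Spaca3 was 0.005 for oxamate against vehicle. With a library left out, Spaca1 ran from -0.038 to 0.042 against oxamate, Spaca3 from -0.152 to 0.005 for oxamate against vehicle and Spam1 from -0.044 to 0.070 for both compounds against vehicle. Over single genes, 240 of the results with a library left out kept direction and side of the threshold, 19 lost the call, 6 gained it and 5 turned sign, and over the other alternatives 183, 8, 15 and 4 did. The cause of these changes was not tested, beyond the fewer libraries or the changed threshold itself. No scaling moved the median of all genes with a mean of at least 100 by as much as 0.1. No paired analysis was run, because the replicate numbers of the labels run from 1 to 9 over the groups and no number is shared. At 3 libraries per group the standard errors were 0.059 to 0.086, and differences of up to 15.2% (Zpbp, both compounds against oxamate) did not pass the test.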
